A study of Mus musculus with 19 samples.

Results

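The mitochondrial ribosomal protein genes are the nuclear genes whose symbol is *Mrpl* or *Mrps* followed by a number and at most 1 letter. There were 78 of them among the 55573 genes of the 7-tissue table, and the same number among the 55487 genes of the brown adipose tissue (BAT) table and the 13756 genes of the inguinal white adipose tissue (iWAT) table. By textbook assignment 51 encode proteins of the large subunit, 26 encode proteins of the small subunit, and *Mrps36* encodes a protein now placed in the 2-oxoglutarate dehydrogenase complex of the citric acid cycle. Of the 77 ribosomal members, 47 were classed here as having a counterpart in the bacterial ribosome and 30 as having none. RNA-Seq was performed on 7 tissues of C57BL/6J WT mice fed a chow diet, with 1 library per tissue, and on 2 fat depots, iWAT and BAT, of MCK-Musclin mice and their WT controls, with 3 libraries per genotype and depot. MCK-Musclin mice carry a transgene for the muscle-secreted peptide Musclin (gene symbol *Ostn*) driven by the promoter of muscle creatine kinase, a gene of skeletal muscle, and several founder lines on the C57BL/6J background were made. The iWAT and BAT mice of both genotypes were chow-fed males, 5 months old, that were kept in the cold at 8 °C for 1 week. The study's methods describe the mice outside cold exposure as housed at room temperature, its chow-fed mice as young to mature adults, and the mice behind the tissue comparison as male, while the exact age of the mice of the 7 tissues and the founder line sequenced are not given in the sources used here.

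Mitochondria keep a small genome that encodes subunits of the respiratory chain and ATP synthase, together with the RNAs needed to translate them. The mitochondrial ribosome does that work. Its RNA comes from the mitochondrial genome, while its proteins are all encoded in the nucleus, made in the cytosol and imported. In thermogenic adipocytes, which are rich in mitochondria, it supplies the mitochondrially encoded part of the chain that uncoupling protein 1 (*Ucp1*) lets run without making ATP. Expression was measured in FPKM, a fragment count scaled for exon length and library size, so levels can be compared between genes of different lengths.

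In the 7 tissues the defining genes of each tissue were highest where they should be, with *Ucp1* at 467 FPKM in brown adipose tissue and at 0 in white adipose tissue. In the cold BAT libraries *Ostn* was at 0 in every WT library and between 30.3 and 37.9 FPKM in MCK-Musclin libraries. The WT libraries of iWAT had 0, 0 and 0.225 FPKM, and MCK-Musclin libraries 1 to 3 had 0, 5.17 and 4.21 FPKM. Library 1 of the iWAT MCK-Musclin group therefore showed no *Ostn*, and 6 fast skeletal muscle genes summed to 5.55 FPKM in it, so the transgene gives no check of its label. Those muscle genes summed to between 7.31 and 2213 FPKM in WT iWAT and to between 5.55 and 91.0 FPKM in MCK-Musclin iWAT, with the highest sum in WT library 3.

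All 78 genes were at 1 FPKM or more in every tissue, from 2.1 FPKM for *Mrps2* in tibialis anterior muscle to 411 FPKM for *Mrpl42* in heart. *Mrpl42*, a large subunit protein with no bacterial counterpart, was the most abundant member in each tissue. It had 389 FPKM in tibialis anterior muscle, 411 in heart, 265 in brown adipose tissue, 192 in small intestine, 126 in white adipose tissue, 90.8 in liver and 89.1 in brain. Both striated muscles were thus over 4 times as high as liver and brain in FPKM. After rescaling every library to the same total (TPM), heart was 3.73 times as high as liver and 2.68 times as high as brain, and tibialis anterior muscle 4.11 and 2.96 times. In heart *Mrpl42* alone made up 19.2% of the summed FPKM of the members. Part of this level is uncertain, because 429 bases of its transcript are 96.3% identical to *Gm6419*, which had 178 FPKM on average in the BAT libraries. The next members by median level were *Mrps15* (113 FPKM), *Mrpl18* (80.6 FPKM), *Mrps18c* (64.3 FPKM) and *Mrpl30* (63.5 FPKM), all of which have bacterial counterparts. At the low end stood *Mrpl47* (3.21 FPKM), *Mrpl19* (3.26 FPKM), *Mrpl32* (3.93 FPKM), *Mrpl35* (4.62 FPKM) and *Mrps35* (4.91 FPKM). Most of these proteins are present once in each ribosome, while the median levels of their transcripts ranged from 3.21 to 192 FPKM.

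**Figure D1:**
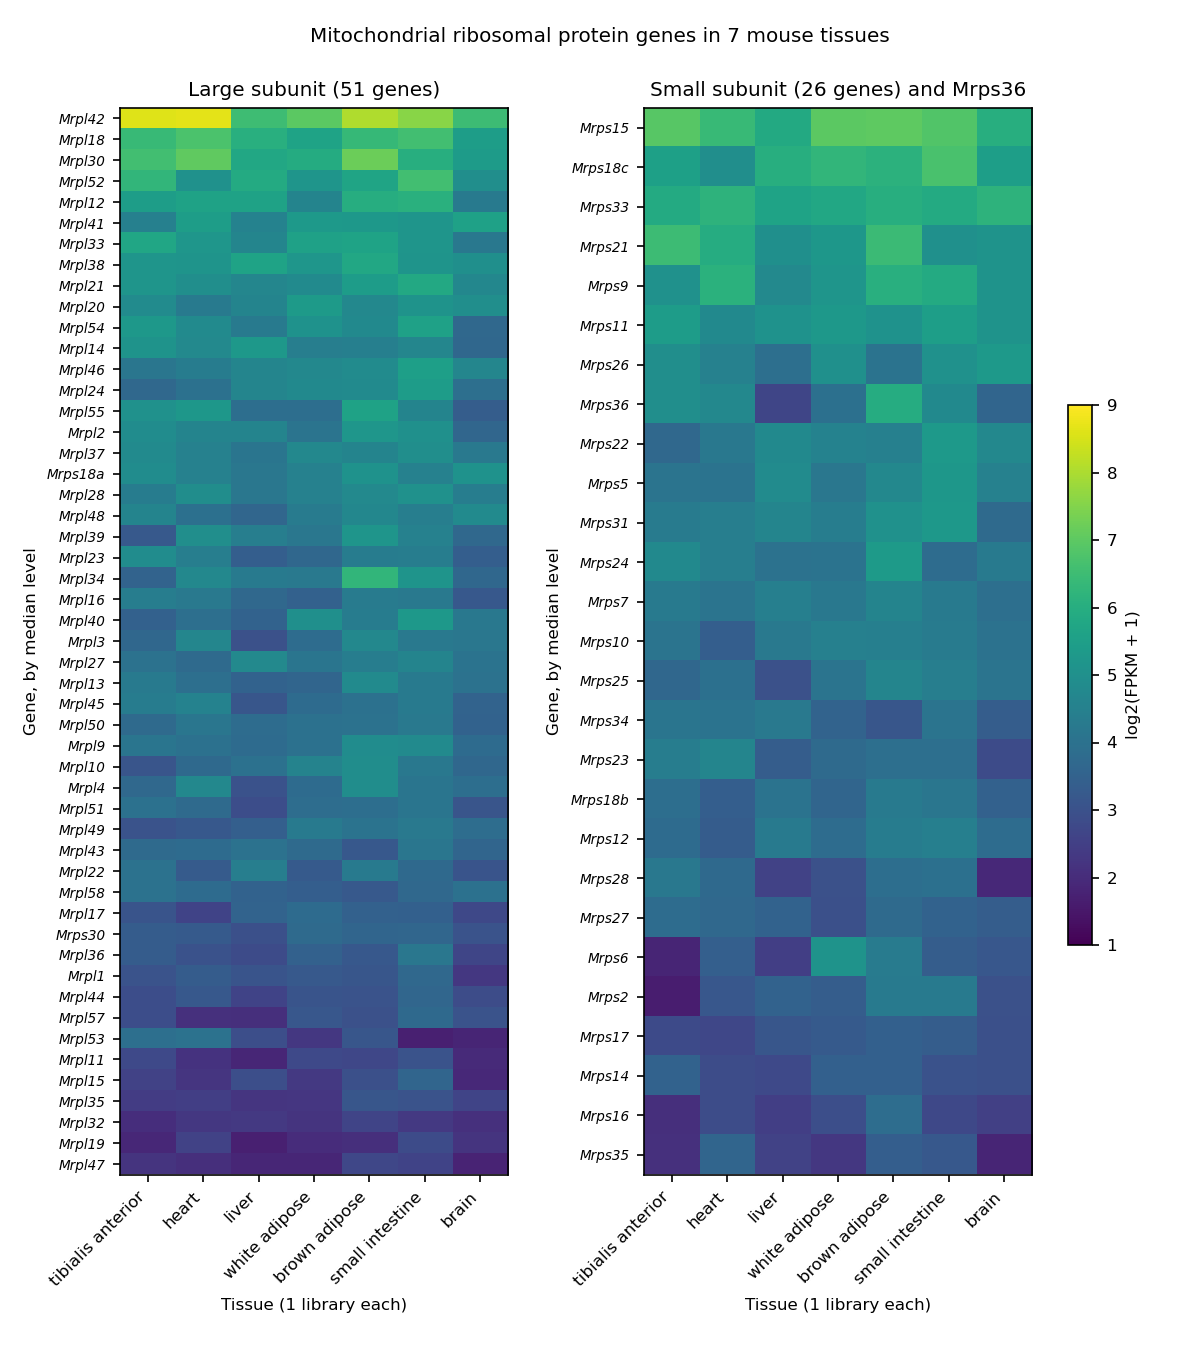
Level of each mitochondrial ribosomal protein gene in 7 mouse tissues, as log2(FPKM + 1) on the color scale. Rows are genes in order of their median level within each subunit, and columns are tissues with 1 library each. *Mrpl42* is the brightest row, and *Mrps6*, *Mrps36* and *Mrpl34* change most along a row.

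Brown adipose tissue had the highest summed level of the members, 2499 FPKM, followed by small intestine with 2304, tibialis anterior muscle with 2144, heart with 2140, white adipose tissue with 1736, liver with 1495 and brain with 1370 FPKM. This order depends on the scaling: in TPM, small intestine was highest with 4581 and white adipose tissue followed with 4132, while brown adipose tissue had 3513. Mitochondrially encoded genes took 53.8% of the summed FPKM in brown adipose tissue and 53.6% in heart but from 13.3% to 29.2% in the other 5 tissues. The summed FPKM of a library was not fixed, with 711437 in brown adipose tissue, 676462 in heart and 393682 in brain. A high mitochondrial share therefore lowers the nuclear genes when a library is rescaled to a fixed total, as in TPM. As single genes, 25 members were highest in small intestine and 24 were highest in brown adipose tissue, while 25 were lowest in liver and 24 in brain. These counts also depend on the scaling. In TPM the small intestine was the highest tissue for 33 members and brown adipose tissue for 8, and 25 were lowest in liver, 22 in heart and 9 in brain. When each library was scaled without mitochondrially encoded and the most abundant genes, 32 were highest in brown adipose tissue. With 1 library per tissue these differences have no replicate check.

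Ratios within a library do not depend on such scaling. The nuclear-encoded subunits of the respiratory chain and ATP synthase, 86 genes by symbol, summed to 11.3 times the mitochondrial ribosomal proteins in brown adipose tissue, 10.9 times in heart and 8.60 times in tibialis anterior muscle. In the other 4 tissues the ratio lay between 5.19 in white adipose tissue and 6.04 in small intestine. Tissues with a high level of respiratory chain transcripts therefore did not have mitochondrial ribosomal protein transcripts in the same proportion. The cytosolic ribosomal proteins, 89 genes by symbol, showed another order. They summed to 8.74 times the mitochondrial ones in small intestine, 6.25 times in white adipose tissue and 2.71 times in heart.

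**Figure D2:**
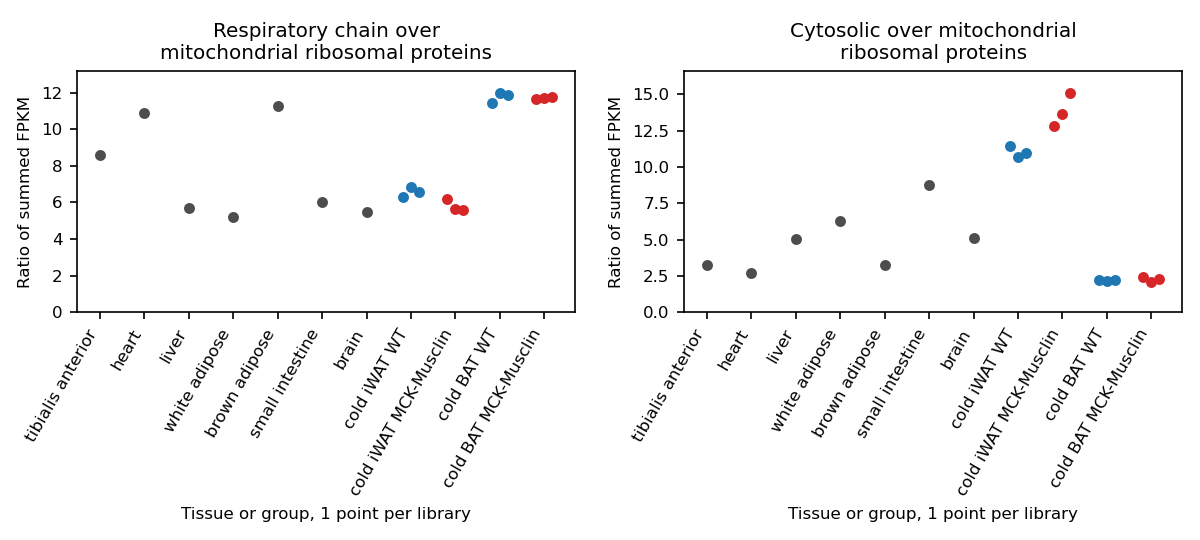
Summed FPKM of nuclear-encoded respiratory chain genes (left) and of cytosolic ribosomal protein genes (right), each divided by the summed FPKM of the mitochondrial ribosomal protein genes. Each point is 1 library, gray for the 7 tissues, blue for WT and red for MCK-Musclin mice in the cold. The respiratory ratio is between 10.9 and 11.97 in heart and all brown fat libraries, and the cytosolic ratio is highest, from 12.8 to 15.1, in MCK-Musclin iWAT.

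The members shared their profile across the tissues only in part. The correlation of a member's log2(FPKM + 1) with the mean of the other 77 members over the 7 tissues had a median of 0.55, was at least 0.5 for 44 members and was below 0 for 4. This is a description over 7 libraries that share their scaling. The same correlation was not computed for other genes, so no profile particular to the members is shown. *Mrpl9*, a large subunit protein with a bacterial counterpart, followed the others most closely (r = 0.94). *Mrpl58*, a peptidyl-tRNA hydrolase that frees stalled ribosomes and is built into the large subunit, ran against them (r = -0.45). The highest tissue exceeded the lowest by a median of 2.70 times, and 7 members exceeded 5 times.

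*Mrps36* had the widest range on the log2(FPKM + 1) scale, with 61.1 FPKM in brown adipose tissue, 29.8 in tibialis anterior muscle, 27.1 in small intestine, 25.6 in heart, 14.4 in white adipose tissue, 11.3 in brain and 5.32 in liver. The gene that is not a ribosomal protein gene by function was therefore 11.5 times as high in its highest tissue as in its lowest. *Mrps6*, a small subunit protein with a bacterial counterpart, had 33.4 FPKM in white and 18.98 in brown adipose tissue but 2.57 in tibialis anterior muscle, so that white adipose tissue was 12.99 times as high as the muscle. Its exons overlap those of *Slc5a3*, and reads counted without strand can be shared between them. *Mrpl34*, also of bacterial type, had 76.3 FPKM in brown adipose tissue, 34.4 in small intestine and 10.8 in tibialis anterior muscle. *Mrps2* had 18.3 FPKM in brown adipose tissue, 18.2 in small intestine and 2.1 in tibialis anterior muscle. Least variable in FPKM was *Mrps33*, which lay between 48.8 FPKM in liver and 71.4 in heart and brain, a ratio of 1.47 that was 2.08 in TPM. Its level is uncertain too, because 321 bases of its transcript are 99.7% identical to *Gm5776*, which had 54.2 FPKM on average in BAT.

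The bacterial ribosomal protein S18 has 3 descendants in mammals, and their transcripts were not equally abundant. *Mrps18c*, a small subunit protein, had from 29.7 FPKM in heart to 103 in small intestine. *Mrps18b*, also of the small subunit, had from 9.46 FPKM in heart to 18.3 in brown adipose tissue. *Mrps18a*, whose product sits in the large subunit, had from 17.1 FPKM in liver to 32.6 in brown adipose tissue and brain. *Mrps18c* was the highest of the 3 in every tissue. *Mrpl12*, the stalk protein that recruits translation factors, had from 18.1 FPKM in brain to 66.2 in small intestine.

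The promoter sequences of the members were compared with those of other genes. RefSeq windows of GRCm38.p6, from 250 bases before to 50 bases after the start, were found for 69 of the 78 genes. Short cores of 5 transcription factor motifs were searched on both strands. The core GCGCATGCG of nuclear respiratory factor 1 (NRF1), a regulator of nuclear genes for mitochondria, was in 10.1% of the members, against 2.74% of 16522 protein-coding genes and 4.58% of those at 1 FPKM or more in BAT. The ETS core CCGGAAGT, read by GABP among others, was in 17.4% of the members, against 5.94% of protein-coding genes and 10.2% of the expressed ones. The YY1 core AAGATGGCG was in 11.6%, against 2.25% and 4.15%. The core TCAAGGTCA of estrogen-related receptors was in none of the 69, and in 0.387% of protein-coding genes. The GC box GGGCGG was in 49.3%, close to the 51.02% of protein-coding genes and below the 71.2% of the expressed ones. In addition, 18 of the 78 genes (23.1%) had the start of a protein-coding gene on the other strand within 1000 bases upstream, against 6.79% of 21951 protein-coding genes and 11.04% of the expressed ones. Examples are *Mrpl32* with *Psma2*, *Mrpl51* with *Ncapd2*, and *Mrps12* with *Sars2*, the mitochondrial seryl-tRNA synthetase. These matches are descriptions of letters, not of factor binding.

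The sequences below run 5′ to 3′ on the strand of the gene, from 120 bases before to 30 bases after the start, with the letters of the searched cores in capitals. *Mrpl9* (chr3:94443216-94443365, plus strand) and *Mrpl32* (chr13:14613008-14613157, minus strand) are shown for the NRF1 core, of which *Mrpl32* holds 2 separate copies on this stretch.

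Mrpl9: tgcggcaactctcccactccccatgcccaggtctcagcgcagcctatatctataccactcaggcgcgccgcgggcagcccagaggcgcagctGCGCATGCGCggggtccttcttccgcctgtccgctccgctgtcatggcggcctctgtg

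Mrpl32: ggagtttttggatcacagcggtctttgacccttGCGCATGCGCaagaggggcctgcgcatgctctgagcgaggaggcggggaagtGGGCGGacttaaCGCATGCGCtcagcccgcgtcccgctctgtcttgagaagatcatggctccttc

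*Mrpl51* (chr6:125192080-125192229, plus strand) and *Mrps22* (chr9:98601650-98601799, minus strand) are shown for the ETS core, which 12 of the 69 members hold. Both were lower in iWAT of MCK-Musclin mice (values are given with the iWAT comparison). However, *Mrps18c* also holds the core and was higher there, and *Mrps36* and *Mrpl53* were lower without it. A link between the core and the genotype difference was not tested.

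Mrpl51: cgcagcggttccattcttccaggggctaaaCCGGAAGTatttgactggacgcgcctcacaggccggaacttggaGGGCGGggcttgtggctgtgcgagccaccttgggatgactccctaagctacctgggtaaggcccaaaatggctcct

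Mrps22: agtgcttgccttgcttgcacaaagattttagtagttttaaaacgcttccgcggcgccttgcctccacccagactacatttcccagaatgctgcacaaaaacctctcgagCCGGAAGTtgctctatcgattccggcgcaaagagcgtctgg

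*Mrps27* (chr13:99344666-99344815, plus strand) holds both an ETS and a YY1 core, and *Mrps18a* (chr17:46110884-46111033, plus strand) a YY1 core just past the start.

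Mrps27: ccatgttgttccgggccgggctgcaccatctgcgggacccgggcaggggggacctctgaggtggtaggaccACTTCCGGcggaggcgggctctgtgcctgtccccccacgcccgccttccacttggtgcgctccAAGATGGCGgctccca

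Mrps18a: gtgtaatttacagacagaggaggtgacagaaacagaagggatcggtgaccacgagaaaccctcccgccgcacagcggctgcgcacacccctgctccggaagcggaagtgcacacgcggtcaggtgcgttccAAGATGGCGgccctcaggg

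The genes that differed most between the genotypes in iWAT are shown last. *Mrps21* (chr3:95871485-95871634, minus strand) holds none of the 5 cores in its window, and *Mrps36* (chr13:100744630-100744779, minus strand) holds the GC box alone.

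Mrps21: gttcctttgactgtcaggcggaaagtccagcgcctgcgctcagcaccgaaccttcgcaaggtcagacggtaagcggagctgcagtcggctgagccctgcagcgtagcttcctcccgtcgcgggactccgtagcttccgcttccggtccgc

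Mrps36: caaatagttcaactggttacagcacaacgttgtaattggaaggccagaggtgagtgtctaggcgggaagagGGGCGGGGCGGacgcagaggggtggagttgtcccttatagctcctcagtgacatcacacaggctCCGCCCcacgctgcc

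The comparison of iWAT between genotypes asked how Musclin from muscle changes the cold-exposed white depot. WT libraries 1 to 3 had a summed FPKM of 2522, 2418 and 2417 over the members, and MCK-Musclin libraries 1 to 3 one of 2555, 2474 and 2412, so the groups overlapped. On log2(FPKM + 1) with limma, none of the 78 passed an adjusted p of 0.05, as none of the 12197 genes tested did (0%). At an unadjusted p under 0.05, 4 members were lower in MCK-Musclin mice (5.13% of them, against 3.44% of all genes) and 3 were higher (3.85%, against 13.1%). The groups did not overlap for 7 lower members, against 5.44% of all genes, and for 6 higher members, against 17.9%. The median difference of the members was -0.07, while that of all genes was 0.06. Centring the libraries on general adipocyte markers moved the median of all genes to 0.24 and that of the members to 0.11. All 8 of these markers were themselves lower in MCK-Musclin iWAT, with a median of -0.13 and none at an unadjusted p under 0.05. The sign of the members' median thus depends on the scaling. Relative to all genes the members were at -0.13, and between -0.16 and -0.09 under every scaling and with each library left out.

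The other families gave different pictures in the same libraries. The cytosolic ribosomal proteins summed to between 25779 and 28942 FPKM in WT and between 32701 and 36377 FPKM in MCK-Musclin mice. Of 82 tested, 49 were higher at an unadjusted p under 0.05 and none was lower, with a median of 0.33 that stayed positive under every scaling. For each unit of mitochondrial ribosomal protein FPKM there were from 10.7 to 11.5 units of cytosolic ribosomal protein FPKM in WT mice and from 12.8 to 15.1 in MCK-Musclin mice. The respiratory chain genes had a median of -0.17, with 13 of 81 lower and 1 higher, and their median was 0.01 after centring on adipocyte markers. They summed to between 6.30 and 6.85 times the mitochondrial ribosomal proteins in WT mice and to between 5.61 and 6.16 times in MCK-Musclin mice. Neither ratio overlapped between the genotypes. The mitochondrial ribosomal proteins thus lay between a family that was higher and one that was lower.

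Cell markers moved with genotype in these libraries. All 5 B cell markers and all 5 T cell markers were higher in MCK-Musclin iWAT at an unadjusted p under 0.05, with summed levels of 123 to 237 FPKM in WT and 270 to 359 FPKM in MCK-Musclin mice for B cells, and of 70.5 to 88.2 FPKM and 123 to 131 FPKM for T cells. Of 8 brown and beige markers 6 were lower, with sums of 571 to 1070 FPKM in WT and of 643, 223 and 115 FPKM in MCK-Musclin libraries 1 to 3. Library 1, which showed no *Ostn*, thus lay within the WT range for these markers, and its *Ucp1* (173 FPKM) did so too, against 31.6 and 2.91 FPKM in the other MCK-Musclin libraries and 130 to 346 FPKM in WT. All 4 macrophage markers had a higher mean as well, 1 of them at an unadjusted p under 0.05 with limma. Their sums overlapped, with 118 to 148 FPKM in WT and 133 to 203 FPKM in MCK-Musclin iWAT. No marker of these lists was at 0. Their part in the levels of the members was not tested, and in bulk tissue fewer cells of a type and less RNA per cell cannot be told apart.

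**Figure D3:**
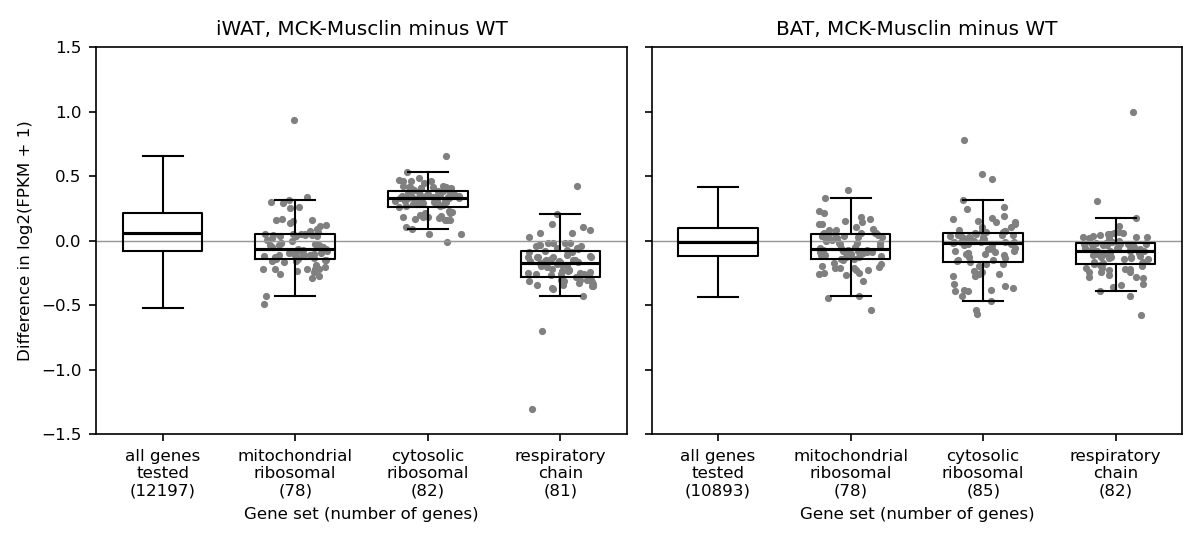
Difference in log2(FPKM + 1) between MCK-Musclin and WT mice for all genes tested and for 3 gene families, in iWAT (left) and BAT (right). Boxes show the median and quartiles, whiskers reach 1.5 times the quartile range, gray points are genes of the families, and 2 points in iWAT and 1 in BAT lie outside the axis. In iWAT the mitochondrial ribosomal proteins (median -0.07, or 0.11 after centring on adipocyte markers) lie between the cytosolic ribosomal proteins and the respiratory chain genes.

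*Mrps21* stood out from the family. It encodes a small subunit protein with a bacterial counterpart and lies on the minus strand of chromosome 3 (chr3:95862634-95871519, GRCm38). In iWAT it had 92.8, 89.04 and 99.7 FPKM in WT libraries and 166, 180 and 197 FPKM in MCK-Musclin libraries 1 to 3. The lowest MCK-Musclin library was far above the highest WT library, and the mean was 1.93 times as high. The difference in log2(FPKM + 1) was 0.94 (SE 0.10, n = 3 per group, limma adjusted p = 0.0912), so it did not pass the threshold. Without WT library 1 the limma adjusted p was 0.0426, and after centring on adipocyte markers it was 0.0275. In these 2 runs 86 and 437 of all 12197 genes passed, against 0 in the main run. With iWAT MCK-Musclin library 1 left out, which showed no *Ostn*, the difference was 1.00 (adjusted p = 0.143). The cutoff of the study, applied there to DESeq2 results, was an unadjusted p under 0.05 with a log2 difference beyond 0.5. On the limma values used here *Mrps21* was the 1 member past it, as 5.94% of all genes were in iWAT. Its longest transcript, 488 bases, is the shortest of the family, and a stretch of 264 bases is 97.3% identical to *Gm6181*, which had 1.98 FPKM on average in BAT.

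*Mrps36* was the member most clearly lower. Its FPKM was 20.1, 23.0 and 24.4 in WT and 16.0, 16.5 and 14.7 in MCK-Musclin iWAT. All 3 MCK-Musclin libraries lay below every WT library, and the difference was -0.49 (SE 0.10, limma adjusted p = 0.148). In the tissues the same gene was 4.24 times as high in brown as in white adipose tissue in FPKM and 2.50 times in TPM. Without the library that showed no *Ostn*, the difference was -0.50. Stretches of its transcript are near-identical to 5 other annotated genes, of which *Mrps36-ps1*, 99.3% identical over 306 bases, had 1.40 FPKM on average in BAT.

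*Mrps18c* and *Mrpl57* were the other members higher at an unadjusted p under 0.05. *Mrps18c* had 109, 110 and 92.9 FPKM in WT and 131, 121 and 135 FPKM in MCK-Musclin iWAT, a difference of 0.31 (SE 0.10, limma adjusted p = 0.218). *Mrpl57*, a small large-subunit protein without bacterial counterpart, had 9.71, 8.07 and 9.90 FPKM in WT and 13.3, 11.1 and 10.5 FPKM in MCK-Musclin iWAT, a difference of 0.30 (SE 0.13, limma adjusted p = 0.30). Neither overlapped between the genotypes, although *Mrpl57* was separated by less than 1 FPKM. The paralogs of *Mrps18c* did not share its direction, with -0.10 for *Mrps18a* and -0.11 for *Mrps18b*.

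The other lower members were *Mrpl51*, *Mrpl53* and *Mrps22*. *Mrpl51*, of the large subunit, had 14.1, 14.2 and 14.3 FPKM in WT and 12.4, 11.7 and 10.6 FPKM in MCK-Musclin iWAT, without overlap (difference -0.28, SE 0.09, limma adjusted p = 0.221). *Mrpl53*, also of the large subunit, had 3.06, 2.86 and 4.55 FPKM in WT and 2.01, 2.42 and 2.47 FPKM in MCK-Musclin iWAT, without overlap (difference -0.43, SE 0.16, limma adjusted p = 0.264). *Mrps22*, of the small subunit, had 31.3, 27.1 and 31.9 FPKM in WT and 27.9, 22.7 and 22.7 FPKM in MCK-Musclin iWAT, where MCK-Musclin library 1 overlapped WT library 2 (difference -0.29, SE 0.12, limma adjusted p = 0.284). *Mrpl53* is the least abundant of them, and its exons overlap those of 2 other annotated genes. By subunit, 2 of 51 large subunit genes were lower and 1 was higher at an unadjusted p under 0.05. Of 26 small subunit genes 1 was lower and 2 were higher. Among all genes 3.44% were lower and 13.1% higher at this threshold. *Mrps17* was among the 3 largest positive differences (0.34) but overlapped widely, with 12.2, 6.41 and 9.29 FPKM in WT and 13.5, 7.90 and 14.8 FPKM in MCK-Musclin iWAT.

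**Figure D4:**
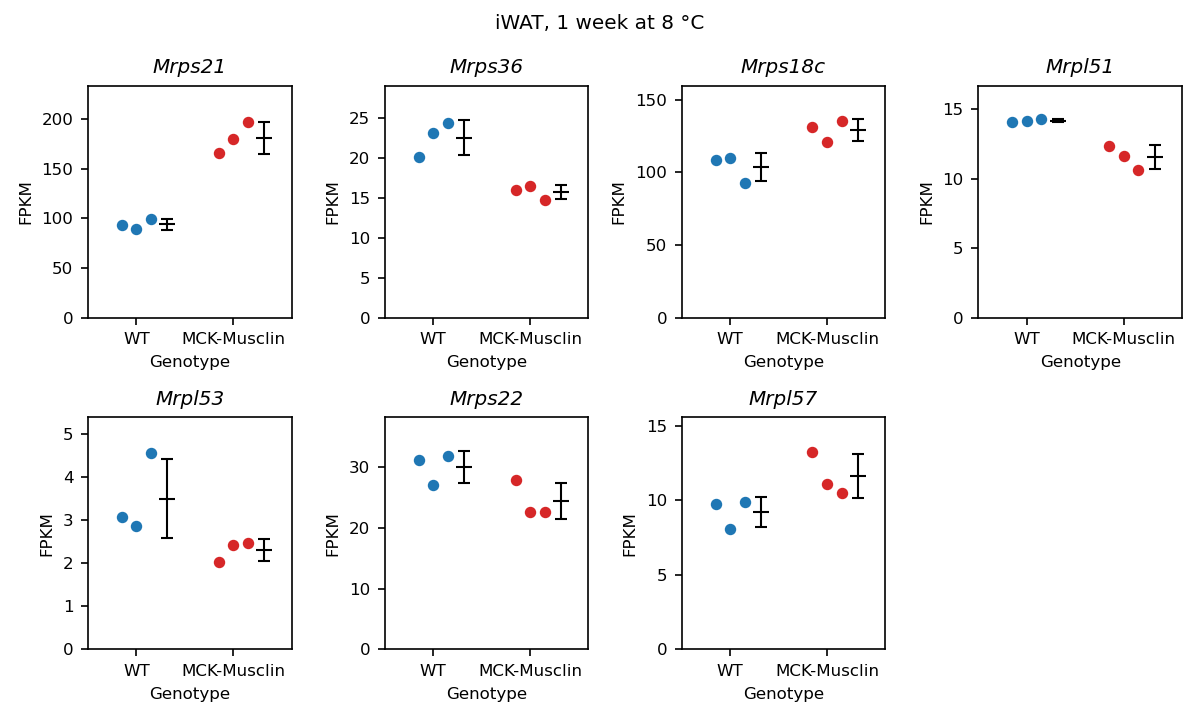
FPKM of the 7 mitochondrial ribosomal protein genes with an unadjusted p under 0.05 in iWAT after 1 week at 8 °C. Points are libraries of WT (blue) and MCK-Musclin (red) mice, and the black bars are the mean and SD of 3 libraries. The MCK-Musclin points of *Mrps21*, from 166 to 197 FPKM, are clear of the WT points, which end at 99.7 FPKM.

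The rest of the mitochondrial translation apparatus was counted in the same way in iWAT, where 3.44% of all genes were lower and 13.1% higher at an unadjusted p under 0.05. The 5 ribosomal proteins with other symbols, *Dap3*, *Ptcd3*, *Chchd1*, *Aurkaip1* and *Gadd45gip1*, gave 0 members past an unadjusted p of 0.05 in iWAT. Of 18 translation factors 2 were lower and none was higher. These were *Taco1*, an activator of the translation of a cytochrome c oxidase subunit, with a difference of -0.39, and *Mtif2*, the initiation factor that brings in the first tRNA, with -0.23. Of 25 assembly and rRNA processing factors 2 were higher, *Mettl17* (0.52) and *Ngrn* (0.31), and none was lower. Of 16 mitochondrial aminoacyl-tRNA synthetases 1 was higher, *Sars2*, with 2.54, 2.67 and 2.28 FPKM in WT and 4.02, 3.38 and 3.71 FPKM in MCK-Musclin iWAT (difference 0.43, limma adjusted p = 0.166). *Mrps12*, which starts next to *Sars2* on the other strand, overlapped between the genotypes and had a difference of -0.11. Of 10 regulators of nuclear genes for mitochondria, *Ppargc1a* was lower (-0.84) and *Myc* was higher (0.39) at an unadjusted p under 0.05. *Ppargc1a*, a coactivator of mitochondrial biogenesis, had 7.16, 7.23 and 6.51 FPKM in WT and 6.34, 2.96 and 2.01 FPKM in MCK-Musclin iWAT, so the difference came mostly from 2 libraries.

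In BAT, *Ostn* was detected in every MCK-Musclin library, and the members overlapped in their sum between the genotypes. WT libraries 1 to 3 summed to 3290, 3180 and 3095 FPKM over the members, and MCK-Musclin libraries 1 to 3 to 2810, 3151 and 3092 FPKM, with library 1 of the latter the lowest. None passed an adjusted p of 0.05, which 0.00918% of 10893 genes did. At an unadjusted p under 0.05, 2 members were lower (2.56% of them, against 2.71% of all genes) and 1 was higher (1.28%, against 2.18%). Groups did not overlap for 8 lower and 3 higher members, against 5.63% and 4.38% of all genes. The median difference was -0.06, against -0.01 for all genes, and leaving out MCK-Musclin library 1 gave -0.01, while it was 0.04 after centring on adipocyte markers. Fast skeletal muscle genes were higher in MCK-Musclin BAT, 5 of 6 at an unadjusted p under 0.05, with sums of 272 to 435 FPKM in WT and 451 to 960 FPKM in MCK-Musclin mice, highest in library 1. Whether this bears on the members was not tested.

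*Mrpl15*, a large subunit protein of bacterial type, had 13.3, 12.97 and 10.7 FPKM in WT and 9.16, 6.89 and 10.5 FPKM in MCK-Musclin BAT. These groups were just separate, and the difference was -0.45 (SE 0.16, limma adjusted p = 0.968). *Mrpl55*, also of the large subunit, had 41.0, 39.5 and 41.7 FPKM in WT and 32.8, 34.2 and 37.0 FPKM in MCK-Musclin BAT (difference -0.23, SE 0.09, limma adjusted p = 0.968). *Mrpl1*, part of the stalk beside the exit site for spent tRNA, had 8.86, 10.6 and 9.27 FPKM in WT and 14.3, 10.6 and 12.2 FPKM in MCK-Musclin BAT (difference 0.33, SE 0.13, limma adjusted p = 0.968). On limma values *Mrpl15* and *Mrpl1* also passed the cutoff that the study applied to DESeq2 results in BAT. This was a log2 difference beyond 0.3 with an unadjusted p under 0.05, which 4% of all genes passed.

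Several members varied far more between mice of 1 genotype than between genotypes. The highest library of a BAT group exceeded the lowest by at least 2 times for 5 members and by a median of 1.19 times over all, whereas in iWAT no member reached 2 times. *Mrpl53* had 13.4, 9.37 and 3.37 FPKM in WT and 19.1, 18.1 and 2.86 FPKM in MCK-Musclin BAT, so library 3 was low in both groups. *Mrps21* had 323, 302 and 170 FPKM in WT and 144, 280 and 166 FPKM in MCK-Musclin BAT. WT library 3 and MCK-Musclin libraries 1 and 3 were low and the others high, across the genotypes, and the difference was -0.43 (SE 0.31). *Mrpl3*, a core protein of bacterial type, had 21.6, 23.3 and 11.6 FPKM in WT and 10.4, 11.1 and 25.3 FPKM in MCK-Musclin BAT, again in both groups. *Mrpl48* had 27.7, 56.5 and 40.7 FPKM in WT and 32.5, 29.995 and 20.5 FPKM in MCK-Musclin BAT, which gave the largest negative difference of the family there (-0.54, SE 0.27).

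**Figure D5:**
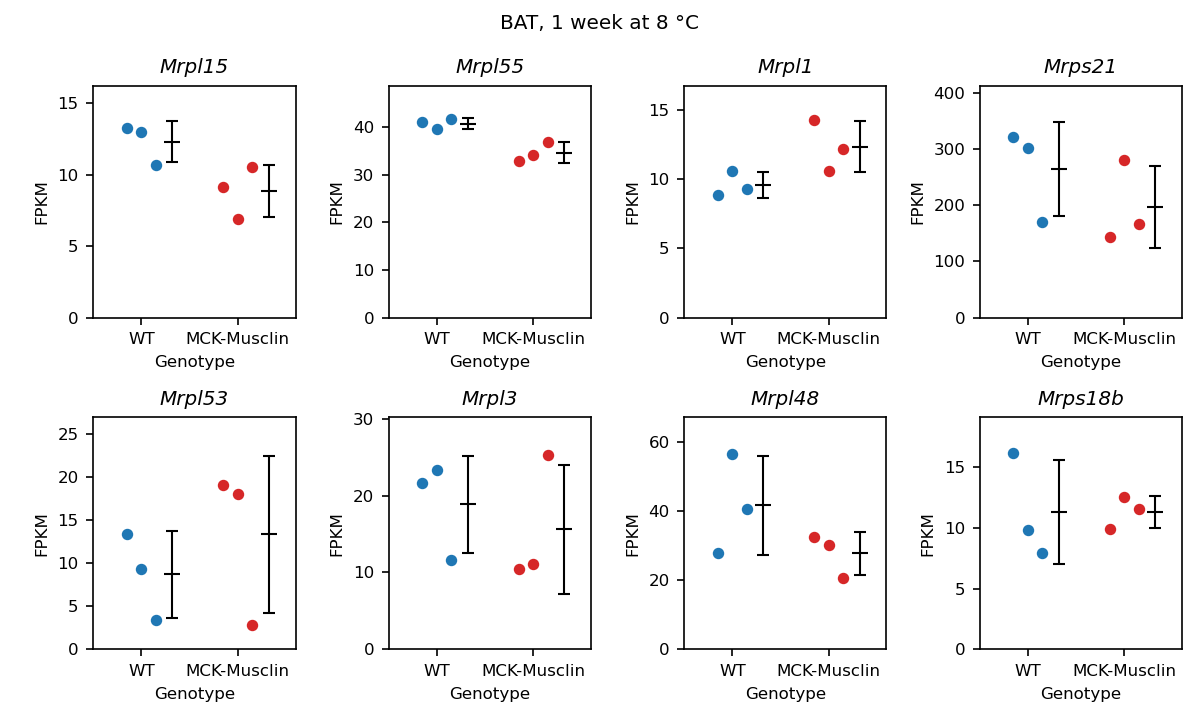
FPKM of 8 mitochondrial ribosomal protein genes in BAT after 1 week at 8 °C, the 3 with an unadjusted p under 0.05 and 5 with a wide spread within a genotype. Points are libraries of WT (blue) and MCK-Musclin (red) mice, and the black bars are the mean and SD of 3 libraries. *Mrps21*, *Mrpl53* and *Mrpl3* each have high and low libraries in both genotypes.

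Of the other mitochondrial translation genes in BAT, none of 17 translation factors and none of 25 assembly factors passed an unadjusted p of 0.05. *Gfm1*, the elongation factor that moves the ribosome along, had the smallest p among the translation factors, with a difference of 0.15. Of 16 mitochondrial aminoacyl-tRNA synthetases 1, *Nars2*, was higher (0.30). Among all genes in BAT 2.71% were lower and 2.18% higher at an unadjusted p under 0.05. The 34 mitochondrially encoded genes tested had a median of -0.05, close to that of the members, and the 82 respiratory chain genes one of -0.08, which turned to 0.02 after centring on adipocyte markers.

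The genotype difference itself was then compared between iWAT and BAT in 1 model of the 12 libraries. No member passed an adjusted p of 0.05, and 7 of 78 (8.97%) passed an unadjusted p of 0.05, against 10.1% of 9757 genes. *Mrps21* had the largest contrast, with a difference 1.37 higher in iWAT than in BAT on the log2 scale (SE 0.36, limma adjusted p = 0.402). *Mrps36* followed with -0.55 (SE 0.14, limma adjusted p = 0.402), and *Mrps18c* had 0.39 (SE 0.13). *Mrps22* (-0.43), *Mrpl1* (-0.56), *Mrpl52* (0.51) and *Mrpl42* (-0.32) were the others. For no member was the genotype difference therefore shown to differ between the depots.

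Levels were also set side by side between the depots of the cold-exposed WT mice. In every BAT library the level was above that in every iWAT library for 42 of the 78 members (53.8%), against 10.9% of all genes, and below it for 15 (19.2%), against 69.4% of all genes. The BAT mean was a median of 1.25 times the iWAT mean over the members and 0.556 times over all genes. The tables were normalized separately and from 50.6% to 52.0% of the FPKM in BAT is mitochondrially encoded, so the position among all genes is more informative than the fold. The 13756 iWAT genes include 0 mitochondrially encoded ones, and how they were selected is not stated in the sources used here. The shares of all genes cover 9757 genes with a mean of at least 1 FPKM in each depot. Genes of BAT that are missing from the iWAT genes are thus left out of these shares. *Mrps36* had 4.45 times the iWAT level in BAT, *Mrpl34* 3.49 times, *Mrps2* 3.23 times, *Mrpl55* 2.87 times and *Mrps21* 2.82 times. *Mrps36*, *Mrpl34* and *Mrps2* had their highest FPKM of the 7 tissues in brown adipose tissue too, although *Mrps2* was higher in small intestine (36.3) than in brown adipose tissue (25.8) in TPM. In the other direction *Mrpl58* and *Mrps26* had 0.473 and 0.476 times the iWAT level, and *Mrps6* 0.584 times.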

How the data were processed

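RNA-Seq libraries were made from poly(A) RNA with random priming. The authors used fastp and bowtie2 for filtering and HISAT2 2.1.0 for unstranded alignment to mm10 (GRCm38). Per the study's methods the deposited FPKM values came from StringTie, while the submitters' processing notes name Cuffdiff. The deposited iWAT table also holds the authors' log2 fold changes, p-values, FDR and mean normalized signal per group, which were not used. Read counts and depth per library were not analysed here, so precision rests on the spread of 3 libraries, which the labels number as replicates of a genotype. Repeated lines of a gene (287 in the tissue and BAT tables) were dropped.

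Genotypes were compared with limma 3.58.1 (eBayes with a trend) in R 4.3.3 on log2(FPKM + 1), which understates changes of low values, over genes with a mean of at least 1 FPKM, with Benjamini-Hochberg adjustment over each table. Python 3.11.15 and blastn 2.17.0 were also used, the latter to find similar transcripts (at least 150 bases and 95% identity), with GENCODE annotation of GRCm38 and RefSeq promoters of GRCm38.p6. In full were given the members with an unadjusted p under 0.05, the 3 largest differences in each direction, and in the tissues the 5 highest and lowest and the most and least variable; the promoters shown, *Sars2* with *Mrps12* and the members of wide spread in BAT were chosen after their values were seen. The members and lists were chosen with earlier results of these data known. Alternatives are given in the closing section.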

Additional observations from a re-analysis of the deposited data

How the results depend on the processing

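For iWAT, 4 members were lower at an unadjusted p under 0.05, and this count was 8 with median-ratio scaling, 0 after centring on general adipocyte markers, and between 1 and 6 with each library left out (2 without WT library 3, 1 without MCK-Musclin library 3). The 3 higher members became 1 with median-ratio scaling and 9 after centring, and were between 1 and 3 with each library left out (1 without WT library 3). The median difference was -0.12 in TPM, -0.14 with median-ratio scaling, 0.11 after centring, and between -0.08 and -0.03 with each library left out. For BAT, 2 lower members became 4 without the filter, 0 after centring, 1 without a trend and 1 with the replicate block, and between 1 and 7 with each library left out (1 without WT library 1 or 2 or MCK-Musclin library 1, 7 without MCK-Musclin library 3). The 1 higher member became 2 without the filter, 0 after centring and 0 with the replicate block, and between 0 and 1 with each library left out (0 without WT library 1 or MCK-Musclin library 1). The BAT median was 0.0352 after centring and between -0.0751 and -0.0121 with each library left out. *Mrpl53* in BAT turned to -0.10 without WT library 3 and to -0.01 without MCK-Musclin library 1, and was at most 1.18 (without MCK-Musclin library 3). The count of 7 members for the difference between depots stayed within 1.5 times under each alternative run. Of 15 single members followed in a table, no other value changed sign. In the tissues, the sum in brown adipose tissue was 1.82 times that in brain, against 1.01 in TPM and 1.66 as a mean of log2 values. Members highest in brown adipose tissue were 8 in TPM in place of 24, and members highest in small intestine were 9 after leaving out mitochondrially encoded and the most abundant genes, in place of 25. The causes of these shifts were not tested.

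Same-numbered libraries of the genotypes deviated together with correlations of 0.23, 0.06 and 0.11 in iWAT and of -0.10, 0.00 and 0.01 in BAT, so the numbers were not taken as pairs. With 3 libraries per group an exact permutation test cannot give a p below 0.1, and depth per library is unknown. Exons of 33 members overlap those of another annotated gene, and 28 members have a similar transcript elsewhere. This leaves their levels less certain, among them those of *Mrpl42*, *Mrps33*, *Mrps36*, *Mrps6* and *Mrpl53*.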
